A study of Mus musculus with 8 samples.

Results

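The genes of the cytosolic ribosome were compared between 4 liver samples of cystic fibrosis (CF) mice and 4 of wild-type (WT) mice. Members were the genes whose array annotation symbol begins with Rpl, Rplp or Rps and a number, together with Rpsa, leaving out the Rps6k kinases. The symbols alone chose the genes, and the mean over the 8 arrays chose 1 probe for each. This gave 66 of the 16593 named genes of the array, 40 with large subunit names and 26 with small subunit names. Rps19bp1, a protein that binds Rps19, and Rps23rg1, a retrogene of Rps23, enter through their names without being standard subunits. Fau, a ribosomal protein gene outside the naming rule, is described separately.

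The CF animals carried the ΔF508 allele of Cftr, the chloride channel gene mutated in human cystic fibrosis, and the WT animals were their littermates. All were C57BL/6 females 3 weeks of age, weaned on day 21 to an enriched chow and killed on day 23, and a weakened Colyte solution, a laxative of polyethylene glycol and salts, replaced the water of both genotypes. Frozen whole liver gave 1 array per replicate, and the labels do not state that each replicate is a separate animal, so p-values measure the spread between these samples. Values are log2 signals of single-colour bead arrays, differences are CF minus WT, and errors are SD over n = 4 arrays or the standard error (SE) of the fit. Signals of different probes depend on the probe and are not set against each other as transcript levels.

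A ribosome joins a small subunit, which reads the messenger RNA, to a large subunit, which forms the peptide bond. Each of its proteins is normally made by a gene of its own, and surplus copies that find no ribosomal RNA to bind are degraded. Their messenger RNAs begin with a terminal oligopyrimidine (TOP) tract, through which the kinase complex mTORC1 and the RNA-binding protein LARP1 control how fast they are translated. In the liver, a tissue of high protein secretion, these transcripts are among the most abundant of the cell. Ribosomal protein genes have many processed pseudogenes of nearly the same sequence, and cross-hybridisation of the probes was not tested.

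Sequences around the transcription start are shown because the TOP tract begins there. RefSeq promoter entries (GRCm38.p6) matched 57 of the 66 genes. Starts are those of the entries, which met the annotated gene start for 17087 of the 22862 genes with 1 entry. The pentamers CTTTC or CTTTT, on the transcript strand from 25 bases before to 20 bases after the start, occurred in 36.8% of these genes, against 11.1% of the 13335 genes of the array with an entry. The hexamer CCGGAA, the core bound by ETS-family factors, occurred on either strand of the 300 bases in 50.9%, against 22.5% of the array genes. CTTTC can share its last bases with TTCCGG, the same hexamer on the other strand. Among the 16 matched genes that rose in CF these shares were 37.5% and 56.2%, and among the 36 matched genes that did not pass they were 36.1% and 44.4%. The motifs were chosen after the sequences were seen, and their part in the differences was not tested. The windows below show 6 genes that rose, first in order of adjusted p among those with an entry, and then the 4 genes of brightest probe with an entry that did not pass. Capitals mark these matches.
Rpl12 (chr2:32961687-32961731, plus strand): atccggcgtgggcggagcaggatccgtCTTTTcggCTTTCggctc
Rps13 (chr7:116334171-116334215, minus strand): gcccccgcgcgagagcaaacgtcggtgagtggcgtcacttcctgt
Rpl19 (chr11:98026685-98026729, plus strand): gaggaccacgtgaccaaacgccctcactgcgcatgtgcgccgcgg
Rpl31 (chr1:39367826-39367870, plus strand): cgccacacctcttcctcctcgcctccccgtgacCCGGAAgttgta
Rps9 (chr7:3704016-3704060, plus strand): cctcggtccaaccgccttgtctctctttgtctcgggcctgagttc
Rps10 (chr17:27635225-27635269, minus strand): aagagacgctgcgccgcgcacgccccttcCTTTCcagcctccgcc
Rpl41 (chr10:128549149-128549193, minus strand): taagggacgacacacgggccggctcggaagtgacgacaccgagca
Rpl38 (chr11:114668555-114668599, plus strand): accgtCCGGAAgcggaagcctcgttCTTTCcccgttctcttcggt
Rpl37 (chr15:5116588-5116632, plus strand): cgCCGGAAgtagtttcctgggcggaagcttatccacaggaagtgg
Rpl10 (chrX:74270791-74270835, plus strand): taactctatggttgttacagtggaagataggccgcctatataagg
Both sets hold windows with and without a match.

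The tissue carried hepatocyte transcripts on every array. Ttr, the thyroxine carrier made by hepatocytes, was between 14.32 and 14.44 on all 8 arrays. The Alb and Tat probes were dim, and that for Fgb was under the background level of 6.47. The Cftr probe was under background in both genotypes, at 6.06 ± 0.12 in CF and 6.11 ± 0.03 in WT, and therefore gives no check of the genotype. Exocrine pancreas genes had a mean level of 12.14 in WT 3 and 11.69 in CF 1, against 6.99 to 9.71 on the other arrays. Of 7 neutrophil markers 5 were higher in CF, against 11% of all genes tested. The summed linear signal of the 7 was 1769 to 2948 in CF and 881 to 1119 in WT. Mpo and Camp among the 5 lay under background on the 4 WT arrays and met the filter through CF, so their calls add no support. Of 6 proliferation markers 3 were lower (Mcm5, Cdk1 and Top2a), against 8.79% of all genes tested. Top2a lay under background on the 4 CF arrays and met the filter through WT, so its call adds no support. The mean log2 level of 6 endothelial genes was 8.91 to 9.06 in WT and 9.29 to 9.39 in CF, with no overlap. Among single genes tested, 13.9% had all CF arrays above all WT arrays, and the share among means of 6 genes was not computed. The summed linear signal of the 6 endothelial genes overlapped, at 6206 to 7360 in WT and 6762 to 7223 in CF. Lyve1 among them was higher, by 1.35, while Clec4g, the brightest, differed by -0.16 and did not pass. Marco was higher among 5 Kupffer cell and macrophage genes, and among 7 stellate cell and fibroblast genes Dcn was higher and Lrat lower. None of 2 B cell and 4 T and NK cell markers passed (limma, adjusted p), and the summed linear signals of both lists overlapped between the genotypes. The part of these markers in the results below was not tested.

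Ribosomal protein transcripts were higher in CF liver by small amounts. Of the 66 genes, 60 had a probe above background on at least 4 arrays. Of these 60, 18 rose, 0 fell and 42 did not pass (limma, adjusted p under 0.05 over all 12923 probes tested). At an unadjusted p under 0.05 (limma), 31 differed, with Rpl27a lower and the others higher, and the share of all genes at that level was not computed. The share that rose was 30%, against 11% of all 9146 genes tested with 1 probe each, while 8.79% of all genes fell. The median difference of the 60 genes was 0.19 on the log2 scale, with 47 positive and 13 negative. That of all genes was 0.02, with 54.1% positive. The 18 that rose differed by 0.24 to 0.49, or 1.18-fold to 1.41-fold, with a median of 0.35. In bulk tissue a change in the number of cells of a type and a change of RNA per cell cannot be told apart, and the quantile normalization of the deposited values makes each difference relative to the other transcripts.

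**Figure D1:**
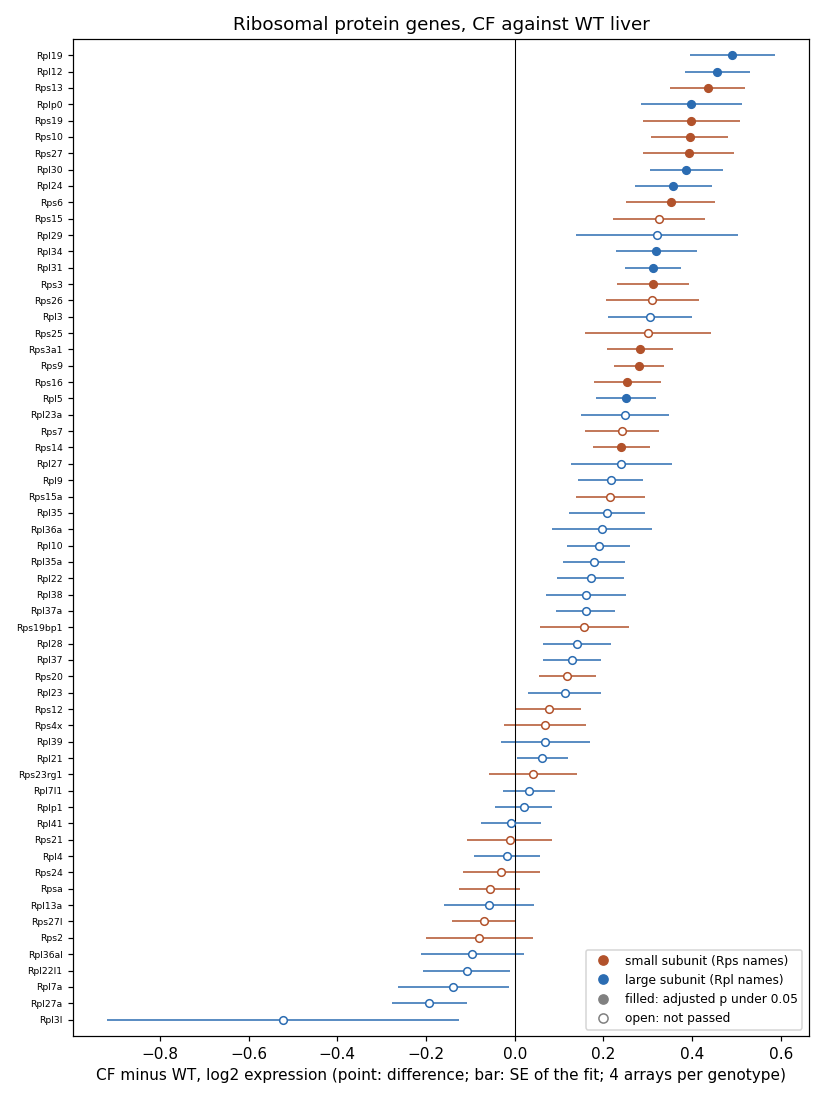
The CF minus WT difference of the 60 tested ribosomal protein genes on the log2 scale, with the SE of the fit over 4 arrays per genotype. Filled points passed at adjusted p under 0.05. The 18 filled points lie between 0.24 and 0.49, and the open points between -0.52 and 0.33.

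The number that passed depended on single arrays. It was 14 without WT 1, 18 without WT 2, 9 without WT 3, 8 without WT 4, 11 without CF 1, 10 without CF 2, 12 without CF 3 and 13 without CF 4, with 0 lower each time. Without WT 3 and CF 1, the arrays where pancreas transcripts were highest, it was 3, namely Rpl12, Rps13 and Rpl30, while the median difference was 0.16. Pancreas transcripts were also present on other arrays, with a list mean of 9.71 in CF 2. Of the 18 genes, 8 kept their call in each of the 8 fits that left out an array. The other 10 (Rps3, Rps3a1, Rps27, Rpl5, Rps14, Rps19, Rplp0, Rpl34, Rps6 and Rps16) lost it in 5 to 7 of these fits, and their differences stayed between 0.21 and 0.49.

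Among large subunit genes, Rpl12 had the smallest adjusted p. It encodes a protein at the base of the stalk that recruits elongation factors. Rpl12 was at 12.03, 12.15, 11.90 and 12.01 in WT 1 to WT 4 and at 12.56, 12.52, 12.42 and 12.41 in CF 1 to CF 4. The 4 CF arrays all lay above the 4 WT arrays. The difference was 0.46 ± 0.073 SE (1.37-fold, adjusted p = 0.00306, limma), and its adjusted p was 0.0330 without WT 3 and CF 1.

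Rpl19, a large subunit protein that reaches across to the small subunit, had the largest difference among the 60 genes above 0. Its signals were 10.71, 11.01, 10.68 and 10.63 in WT and 11.31, 11.20, 11.13 and 11.36 in CF. All CF arrays were above WT 2, the highest WT array. The difference was 0.49 ± 0.096 SE (1.41-fold, adjusted p = 0.00802, limma), and without WT 3 and CF 1 it was 0.44 with adjusted p = 0.0668.

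Rpl31, a protein near the exit of the peptide tunnel, was at 12.59, 12.77, 12.61 and 12.69 in WT and 13.01, 12.97, 12.98 and 12.95 in CF. The SD was 0.025 in CF and 0.08 in WT, and the genotypes did not overlap. The difference was 0.31 ± 0.063 SE (adjusted p = 0.00916, limma). A second Rpl31 probe went the other way, with a difference of -0.22 (adjusted p = 0.240). With the tested probes of each gene averaged, Rpl31 did not pass.

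Rpl30, a small RNA-binding protein of the large subunit, was at 9.54, 9.32, 9.20 and 9.43 in WT and 9.66, 9.79, 9.82 and 9.76 in CF. Rpl24, which forms a bridge between the subunits, was at 11.69, 11.55, 11.30 and 11.57 in WT and 11.89, 11.94, 11.90 and 11.81 in CF. In both genes WT 3 was the lowest array and the genotypes did not overlap. Their differences were 0.39 ± 0.082 SE and 0.36 ± 0.086 SE (adjusted p = 0.0117 and 0.0198, limma).

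Rpl5, which carries the 5S ribosomal RNA into the large subunit, was at 12.33 ± 0.09 in WT and 12.58 ± 0.06 in CF. Rpl34 was at 11.61 ± 0.16 in WT and 11.93 ± 0.10 in CF. The adjusted p was 0.0297 for Rpl5 and 0.0377 for Rpl34 (limma), and both genes lost their call in 6 of the 8 fits without an array, with adjusted p up to 0.0855 and 0.103.

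The acidic stalk, the arm that activates the GTPase of the elongation factors, is built on Rplp0 and carries pairs of Rplp1 and Rplp2. Rplp0 was at 7.70, 7.45, 7.36 and 7.15 in WT and 7.77, 7.73, 7.78 and 7.97 in CF. The lowest CF array, CF 2, was only just above WT 1. The difference was 0.40 ± 0.11 SE (adjusted p = 0.0376, limma), and it passed in just 1 of the 8 fits without an array, that without WT 1. Rplp1 was at 14.16 ± 0.07 in WT and 14.18 ± 0.06 in CF, a difference of 0.02 ± 0.064 SE that turned to -0.03 under cyclic loess scaling. Rplp2 was under background on 7 of the 8 arrays and was not tested.

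In the small subunit, Rps13, a protein of the body that contacts the large subunit, had the smallest adjusted p. It was at 11.82, 11.83, 11.59 and 11.85 in WT and 12.18, 12.35, 12.20 and 12.10 in CF. The genotypes did not overlap, and WT 3 was the lowest array. The difference was 0.43 ± 0.084 SE (1.35-fold, adjusted p = 0.00732, limma), and adjusted p was 0.0447 without WT 3 and CF 1.

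Rps9, a small subunit protein near the messenger RNA entry, had the smallest within-genotype SD of the 60 genes, 0.039. Its brighter probe read 12.03, 12.02, 11.95 and 12.04 in WT and 12.31, 12.24, 12.28 and 12.34 in CF. The SD was 0.040 in WT and 0.039 in CF, against a difference of 0.28 ± 0.057 SE (adjusted p = 0.00960, limma). The second Rps9 probe gave 0.43 (adjusted p = 0.0220), in the same direction.

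Rps10, a protein of the small subunit head, was at 11.67, 11.81, 11.54 and 11.54 in WT and 12.15, 12.01, 11.88 and 12.10 in CF. Its difference was 0.39 ± 0.087 SE (adjusted p = 0.0135, limma), with no overlap. Rps19, the gene most often mutated in the human anaemia of Diamond and Blackfan, was at 12.52, 12.98, 12.57 and 12.74 in WT and 13.16, 13.10, 12.93 and 13.20 in CF. Here CF 3 was below WT 2, the one overlap among the 18 genes that rose. The difference was 0.40 ± 0.11 SE (adjusted p = 0.0329, limma), a second probe near background gave 0.31, and adjusted p ranged up to 0.0905 when single arrays were left out.

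Rps6, the substrate of the S6 kinases downstream of mTORC1, was at 11.78, 11.69, 11.57 and 11.82 in WT and 12.28, 12.13, 12.01 and 11.84 in CF. CF 4 exceeded WT 4 by little, and CF 1 was the highest array. The difference was 0.35 ± 0.10 SE (adjusted p = 0.0382, limma), and of the 8 fits without an array it passed in the one without CF 4.

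The other small subunit genes that rose were Rps3, Rps3a1, Rps27, Rps14 and Rps16. Rps3, at the entry of the messenger RNA channel, differed by 0.31 ± 0.081 SE and Rps27, a zinc-finger protein, by 0.39 ± 0.10 SE. Rps3a1 differed by 0.28 ± 0.074 SE, Rps14 by 0.24 ± 0.065 SE and Rps16 by 0.25 ± 0.075 SE. Their adjusted p lay between 0.0260 and 0.0431 (limma), all 5 kept the genotypes apart, and each lost its call in 5 or 6 of the 8 fits without an array. A second Rps3 probe differed by 0.27 and did not pass (adjusted p = 0.224).

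Members that missed the threshold were mostly also above 0, where 54.1% of all genes tested lay. The 5 largest differences among them were Rpl3l (-0.52), Rps15 (0.33), Rpl29 (0.32), Rps26 (0.31) and Rpl3 (0.31). Rps15 had adjusted p = 0.0546, Rps26 0.0686 and Rpl3 0.0505 (limma). Without WT 2, the highest WT array for each of them, Rps15, Rps26, Rpl3 and Rpl29 passed, at adjusted p = 0.0184, 0.0207, 0.0279 and 0.0326. Rpl29 was the most variable of these, at 11.51, 12.32, 11.55 and 11.72 in WT and 12.15, 12.14, 11.78 and 12.31 in CF, so that WT 2 exceeded every CF array.

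Among the 13 genes with a negative difference, Rpl27a was the one whose CF arrays all lay below the WT arrays, as did 10.5% of all genes. It was at 9.77, 9.56, 9.53 and 9.51 in WT and 9.49, 9.49, 9.37 and 9.25 in CF, a difference of -0.19 ± 0.085 SE (adjusted p = 0.146, limma). Its second probe, near background, had a difference of -0.00080. The CF arrays all lay above the WT arrays for 19 of the 60 genes, or 31.7%, against 13.9% of all genes tested. These were 17 of the 18 that rose, and Rpl35a and Rpl37a.

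Most ribosomal proteins have no paralog, and the few pairs among the members are described here. Rpl3, a protein of the large subunit, is replaced by Rpl3l in striated muscle. Rpl3 was at 12.89 ± 0.15 in WT and 13.19 ± 0.13 in CF, and Rpl3l was at 9.83, 10.24, 9.36 and 8.62 in WT and 7.97, 9.56, 9.31 and 9.11 in CF. The within-genotype SD of Rpl3l, 0.70, was the largest of the 60 genes, where the median was 0.12. Its difference of -0.52 ± 0.40 SE did not pass (adjusted p = 0.402, limma), and the genotypes overlapped.

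Transcripts of striated muscle were present on these arrays and varied with Rpl3l. A list of 11 tested muscle genes, added after the values of Rpl3l were seen, had mean levels of 9.86, 10.52, 9.65 and 9.27 in WT and 8.72, 9.84, 9.79 and 9.39 in CF. Both Rpl3l and the list were highest in WT 2 and lowest in CF 1. Acta1, skeletal muscle actin, ranged from 12.10 in CF 1 to 13.43 in WT 2. None of the 11 genes passed between the genotypes (limma), and the summed linear signal was 12900 to 33130 in WT and 9499 to 21851 in CF. The part of muscle RNA in the Rpl3l signal was not tested.

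**Figure D2:**
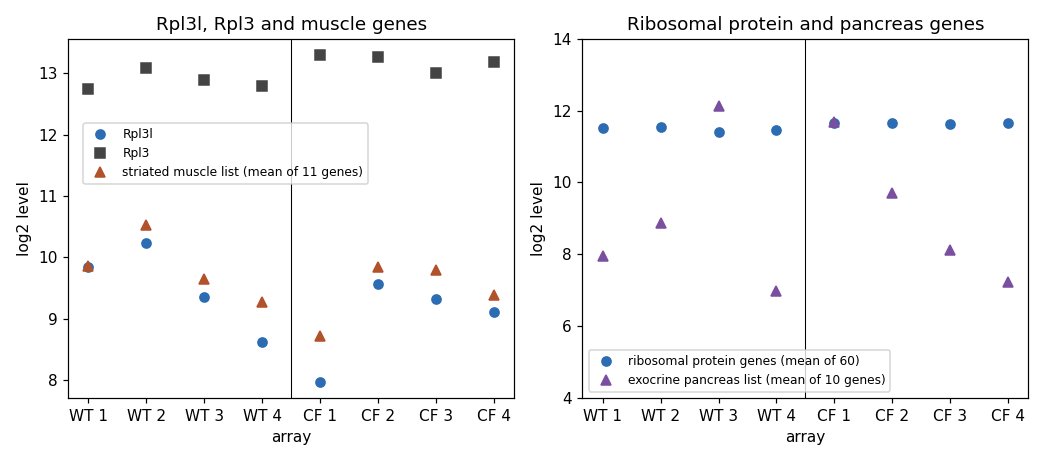
Left, log2 levels of Rpl3l, of Rpl3 and the mean of 11 striated muscle genes on each of the 8 arrays. Right, mean log2 level of the 60 tested ribosomal protein genes and of 10 exocrine pancreas genes. Rpl3l and the muscle list are both highest in WT 2 and lowest in CF 1, and the pancreas list is highest in WT 3 and CF 1, where the ribosomal protein mean is 11.41 and 11.65.

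The other paralog pairs differed less. Rps27 rose, while Rps27l, a paralog induced by p53 in human cells, was at 13.31 ± 0.12 in WT and 13.24 ± 0.04 in CF (difference -0.07 ± 0.073 SE). Rpl22 had a difference of 0.17 ± 0.076 SE and Rpl22l1 one of -0.11 ± 0.098 SE. Rpl36a had 0.20 ± 0.11 SE and Rpl36al, its intronless copy, -0.10 ± 0.12 SE, which was 0.02 without WT 1. In each of these 3 pairs the second gene had the lower difference, and the differences between paralogs were not tested. Rpl39 differed by 0.07 ± 0.10 SE, Rps4x by 0.07 ± 0.092 SE and Rpl7l1 by 0.03 ± 0.058 SE. Rps4x was at -1e-04 without WT 1.

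The small and large subunit lists moved the same way. Of 25 tested small subunit genes 10 rose, or 40.0%, with a median difference of 0.24 and 20 positive. Of 35 tested large subunit genes 8 rose, or 22.9%, with a median of 0.17 and 27 positive. The difference between these shares was not tested. Of all genes tested 11% rose and 54.1% were positive. Under cyclic loess scaling 5 small and 8 large subunit genes rose.

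The mean level of the small subunit genes was 11.49, 11.54, 11.43 and 11.47 in WT 1 to WT 4 and 11.71, 11.68, 11.64 and 11.69 in CF 1 to CF 4. That of the large subunit genes was 11.55, 11.57, 11.39 and 11.43 in WT and 11.60, 11.66, 11.60 and 11.65 in CF. In both lists every CF array was above every WT array. The WT arrays were less even than the CF arrays in the large subunit, with an SD of 0.09 against 0.03. The small minus large mean was -0.06, -0.03, 0.03 and 0.03 in WT and 0.11, 0.01, 0.04 and 0.04 in CF, so the balance of the subunits overlapped between the genotypes.

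**Figure D3:**
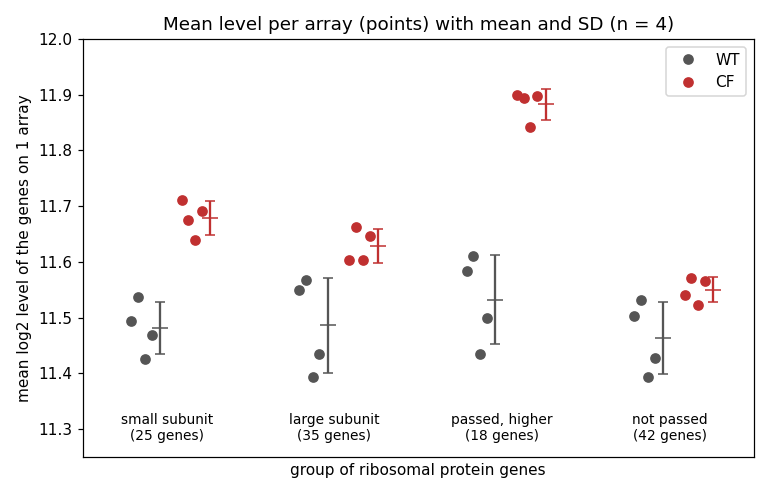
Mean log2 level of groups of ribosomal protein genes on each array, with the mean and SD over 4 arrays per genotype. In the small subunit the CF arrays lie between 11.64 and 11.71 and the WT arrays between 11.43 and 11.54; the 2 groups on the right were chosen by the test and are shown as a description.

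WT 3 and WT 4 read low for most members. In each of them 49 of the 60 genes were below their own mean over the 8 arrays, against 36 in WT 1 and 35 in WT 2. In CF the counts were 12, 10, 21 and 17 for CF 1 to CF 4. WT 3 was the lowest WT array for 25 genes, and no other WT array was lowest for more than 14. WT 3 and CF 1, where pancreas transcripts were highest, had mean deviations of -0.16 and 0.08. Every WT array was below 0 (-0.04, -0.01 and -0.12 in WT 1, WT 2 and WT 4). Every CF array was above 0 (0.10, 0.05 and 0.10 in CF 2, CF 3 and CF 4). Any WT and CF pair therefore has opposite signs, and the part of pancreas RNA was not tested. After removal of the genotype means, pairs of members had a median correlation of 0.17 across the 8 arrays, and 62.1% of pairs were positive. These pairs share the arrays and their scaling.

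**Figure D4:**
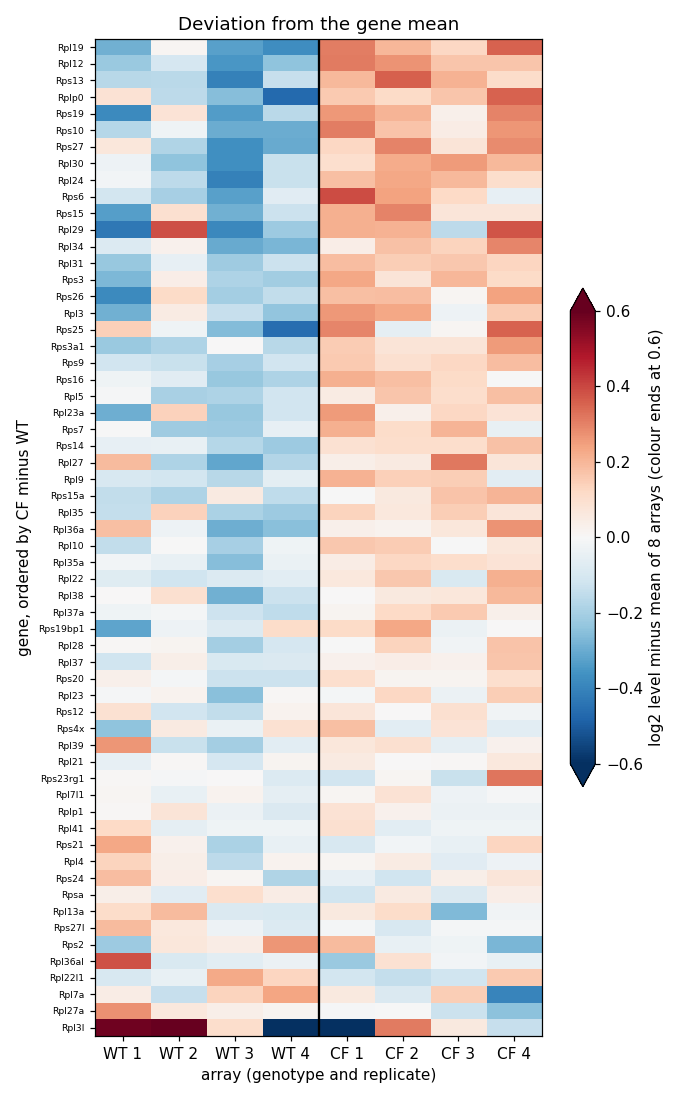
Deviation of each of the 60 tested ribosomal protein genes from its mean over the 8 arrays, on the log2 scale, with genes in order of the CF minus WT difference. WT 3 and WT 4 are below the gene mean in 49 genes each, and Rpl3l stands apart in the bottom row.

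Most genes that rose had bright probes, and so did most tested members. Of 43 members whose probe had a mean above 11, 15 rose, or 34.9%, against 15.9% of the 760 other genes above that level. Of 17 tested members at or below 11, 3 rose, or 17.6%, namely Rplp0, Rpl30 and Rps3a1. Of all genes tested, at any level, 11% rose, and the share of other genes at or below 11 was not computed. The difference between the 34.9% and the 17.6% was not tested. The brightest probes, those of Rpl41 (14.20), Rplp1 (14.17), Rps20 (13.92), Rpl38 (13.84) and Rpl37 (13.57), had differences between -0.01 and 0.16, and none passed. The highest deposited value of the series was 14.66, and whether these probes were near the upper end of the scanner was not tested. Rpl41, which encodes the shortest ribosomal protein, was at 14.21 ± 0.08 in WT and 14.20 ± 0.07 in CF.

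**Figure D5:**
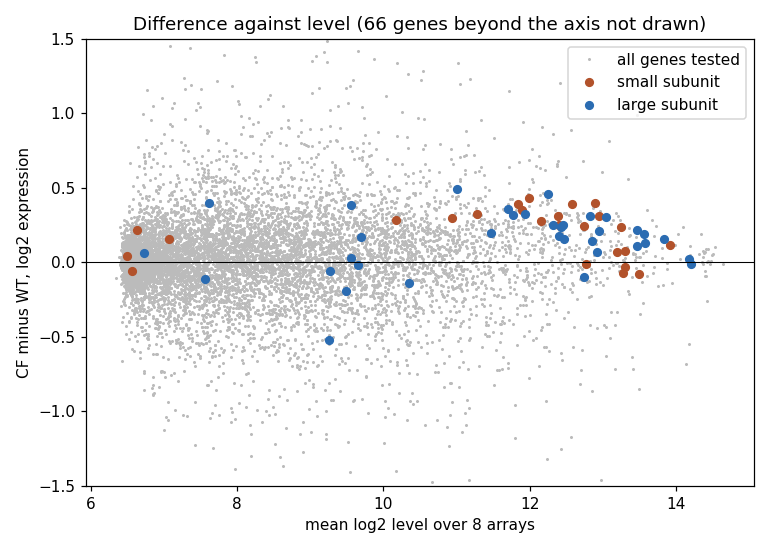
CF minus WT difference against the mean log2 level over 8 arrays for the 9146 genes tested (grey, less 66 beyond the axis) and the 60 ribosomal protein genes (coloured by subunit). Members above a level of 11 lie mostly above 0, as do 55.3% of the other genes above that level. The 5 brightest members lie between -0.01 and 0.16.

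The 6 members not tested were Rpl6, Rpl14, Rpl17, Rpl39l, Rplp2 and Rps23, whose probes were above background on fewer than 4 arrays. Rpl14 was at 6.04 ± 0.11 in WT and 6.06 ± 0.13 in CF, and Rps23 at 6.06 ± 0.09 in WT and 6.11 ± 0.07 in CF. Apart from Rpl39l, a paralog enriched in testis, these encode standard subunits, so a dim probe here gives no level of the transcript. Rpl21, Rpsa, Rps15a and Rps23rg1 passed the filter by little, with means up to 6.73, and none of them passed the test.

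Further probes were compared within genes. Of the 66 genes 15 had more than 1 probe, and 11 had more than 1 above background. In 10 of these 11 all probes had the same sign, and Rpl31 was the exception. The 10 include Rpl27a, whose second probe was at -0.00080. They also include Rps19 and Rpl23, each with a dim probe that met the filter wholly or mostly through CF arrays. The share with 1 sign among other genes was not computed. Among the 4 genes that rose and had a second tested probe, that probe also passed in Rps9 and Rps19. The second Rps19 probe was under background on 3 of 4 WT arrays and met the filter through the CF arrays, so its call adds no support. Rpl23, whose brightest probe differed by 0.11 and did not pass, had others at 0.50 (adjusted p = 0.0528) and 0.37 (adjusted p = 0.0377, limma). The probe of 0.50 ranged from 12.65 to 13.52 in WT and from 13.54 to 13.68 in CF.

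The members lay on 18 chromosomes, and the 18 genes that rose lay on 11 of these. Of the genes that rose, 5 were on chromosome 7, 3 on chromosome 3, 2 on chromosome 5 and 1 on each of the other 8. Their spread over chromosomes was not tested against that of all members.

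Fau, which encodes the small subunit protein Rps30 joined to a ubiquitin-like domain and lies outside the naming rule, rose more than any member. It was at 12.16, 12.59, 12.29 and 12.51 in WT and 13.12, 12.98, 13.05 and 13.12 in CF, with no overlap. The difference was 0.68 ± 0.099 SE (1.60-fold, adjusted p = 0.00197, limma), and 0.63 with adjusted p = 0.024 after omission of WT 3 and CF 1.

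Of 19 tested elongation factor and other TOP genes, 3 rose and 0 fell, with a median of 0.16 and 15 positive. The share that rose, 15.8%, stood beside 11% of all genes, of which 54.1% were positive. These were Eif3f, a subunit of initiation factor eIF3 (0.39 ± 0.082 SE), and Btf3 (0.35 ± 0.090 SE) and Naca (0.24 ± 0.069 SE), the partners of the complex that meets nascent chains at the tunnel exit. The count was 1 when either CF 1 or CF 2 was left out, and 0 when WT 3 and CF 1 both were. Eef1a1 had a probe under background.

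Of 24 tested initiation factors 4 rose and 1 fell, with a median of 0.16 and 18 positive. The share that rose was 16.7%, against 11% of all genes. Of all genes 8.79% fell and 54.1% were positive. The paralogous RNA helicases of the cap-binding complex moved in opposite directions. Eif4a1 was at 11.85, 11.92, 11.94 and 11.96 in WT and 12.34, 12.44, 12.24 and 12.47 in CF (difference 0.46 ± 0.070 SE, adjusted p = 0.00265, limma). Eif4a2 was at 12.40, 12.25, 12.52 and 12.37 in WT and 11.98, 11.99, 11.96 and 11.81 in CF (difference -0.45 ± 0.077 SE, adjusted p = 0.00432, limma). In both helicases the genotypes did not overlap. Eif5, which triggers GTP hydrolysis at the start codon, rose by 0.49 ± 0.076 SE, and Eif1a, which helps scanning, by 0.80 ± 0.14 SE.

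Of 68 tested genes of ribosome biogenesis 11 rose and 0 fell, with a median of 0.13 and 55 positive. Polr1a, the largest subunit of RNA polymerase I, was at 9.03 ± 0.17 in WT and 9.66 ± 0.09 in CF (difference 0.64 ± 0.094 SE, adjusted p = 0.00213, limma). Rrp12, a factor of subunit export, differed by 0.66 ± 0.12 SE, Taf1d, of the polymerase I promoter factor, by 0.43 ± 0.069 SE, and Gnl2, a nucleolar GTPase, by 0.39 ± 0.073 SE. The share that rose, 16.2%, stood beside the 11% of all genes, of which 54.1% were positive. The count was 7 with WT 4 left out, and 6 when WT 3 and CF 1 both were.

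Of 16 tested genes of mTOR signalling and translational repression, 1 rose and 2 fell, with a median of -0.01. The share that rose was 6.25%, and both counts were near the shares of all genes, 11% higher and 8.79% lower. Eif4ebp3, a repressor of cap-dependent translation, was higher by 2.08 ± 0.29 SE. Its paralog Eif4ebp2 was lower, at 10.24 ± 0.15 in WT and 9.72 ± 0.12 in CF (difference -0.52 ± 0.094 SE, adjusted p = 0.00538, limma). Deptor, an inhibitor of mTOR, differed by -0.31 ± 0.092 SE (adjusted p = 0.0439, limma). Leaving out any array other than WT 2 and CF 3 gave 1 that fell, and leaving out either of those gave 2 that rose.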

How the data were processed

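The deposited log2 values were analysed, 25697 probes on 8 arrays with 0 missing. Per the submitters' processing notes the authors used GenomeStudio, with version and settings not given in the sources used here. Once sorted, the deposited log2 values differed between arrays by at most 0.000351, as quantile normalization leaves them. The scanner table has 32 columns named by chip position, which no label ties to a sample, and was not used. Background was the mode of the values, 6.18, plus the one-sided 95% normal quantile times the spread below it, 0.173, giving 6.47. A probe was tested where at least 4 arrays exceeded this level (12923 probes). Of all probes 23978 had 1 gene symbol, 0 several and 1719 none.

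Genotypes were compared with limma 3.58.1 in R 4.3.3 (lmFit, eBayes, two-sided, genotype only) and p-values were adjusted by the Benjamini-Hochberg method over the 12923 probes. The fit was tested on simulated data. Members and lists were chosen with earlier results of these data known. Named genes were all members past the threshold, the 5 largest differences and others by brightness, stalk and paralogy, and up to 4 genes of each related list. Other genes named were chosen after their values were seen. Each gene took its probe of highest mean. Equal replicate numbers were not stated to pair animals, and deviations of equal-numbered arrays correlated at -0.33, 0.06, -0.29 and 0.09. Alternatives covered the filter, scaling, a floor, a replicate block, array weights, the variance prior, thresholds, omitted arrays and other probes. Precision is set by the number of arrays, with a median SE of 0.0849 for the members.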

Additional observations from a re-analysis of the deposited data

Results flagged for a closer look

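Within 4 arrays of a genotype, 1 array lay far from the other 3 for 11 members, where chance would set apart about 1 in 20 of the 132 groups examined. WT 3 was low for Rpl23 (13.21, others 13.46 to 13.49), Rpl35a (12.14, others 12.35 to 12.38) and Rps13 (11.59, others 11.82 to 11.85), and high for the dim probe of Rps15a (6.69). WT 1 was high for Rpl36al (13.13, others 12.65 to 12.70) and Rpl41 (14.32). WT 4 was low for Rps23rg1 (6.41). CF 4 was high for Rpl22l1 (7.72, others 7.41 to 7.45) and Rpl37 (13.74), CF 3 was high for Rpl27 (12.74), and CF 2 was low for Rps27l (13.18). The mean level of the 18 genes that rose was 11.84 in CF 3 and 11.89 to 11.90 on the other CF arrays, a value that the choice of these genes shares.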

How the results depend on the processing

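The median difference of the ribosomal protein genes, and of each subunit, stayed positive under every alternative run, at 0.15 to 0.22 for all members, and no member fell under any of them. The count that rose was 5 with the replicate block, 5 at adjusted p under 0.01 and 3 without WT 3 and CF 1, and 8 to 18 as single arrays were left out. For the small subunit it was 2, 2 and 1 in these 3 settings, 5 under cyclic loess and 3 to 8 as single arrays were left out, and for the large subunit 3, 3 and 2, and 5 to 10. Over all probes, 750 rose and 690 fell with the replicate block, 518 and 474 at adjusted p under 0.01, and 531 and 529 without WT 3 and CF 1. Leaving out single arrays gave 853 to 1158 higher and 759 to 952 lower. Equal numbers are not stated to pair the arrays, so the replicate block stands as an alternative, and the cause of the calls lost under it was not tested. Of the 18 members that rose, 13 kept their call under cyclic loess and 5 with the block. Ribosome biogenesis had 7 risers with the block, 4 and 19 at adjusted p under 0.01 and 0.1, 6 without WT 3 and CF 1, 6 with the second brightest probes and 7 to 12 without single arrays, and 1 faller at 0.1 and 0 to 1 without single arrays. Elongation factors and other TOP genes had 0, 5 and 0 risers at 0.01, at 0.1 and without WT 3 and CF 1, 1 to 4 without single arrays, and 1 faller with array weights, at 0.1 and without CF 1 (0 to 1). Initiation factors had 7 risers at 0.1, 2 with second probes and 3 to 5 without single arrays. The mTOR list had 2 risers with the stricter filter, with array weights and at 0.1, 1 faller with no filter, the block, 0.01, averaged probes, second probes or without WT 3 and CF 1, and 1 to 2 of each without single arrays. Signs turned for 4 genes near 0 that did not pass, and for Rpl31, which rose, with its second probe. Rplp1 was at -0.0308 under cyclic loess and -0.0133 without WT 3 and CF 1, and at -0.0059 to 0.0492 as single arrays were left out. Rpl41 was at 0.0095 with array weights and at -0.0421 to 0.0292 without single arrays. Rpl36al ranged from -0.143 to 0.0156 and Rps4x from -1e-04 to 0.1111, and the second Rpl31 probe was at -0.2202. Fewer arrays or a stricter threshold account for some of these losses by construction, and the cause of the others was not tested. Cyclic loess moved the median of all tested probes to -0.0017.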
